A study of Mus musculus with 6 samples.

Results

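A set of 54 lysosome and autophagy genes was followed in primary mouse myoblasts in which the long non-coding RNA LncMyoD had been targeted. Of these 54 genes, 51 were read by at least 1 probe set annotated with that gene alone, and all 51 were bright enough to be tested, among 12408 genes tested in all. Cd63, Atp6v0c and Bnip3l are not analysed here. Each gene was read by its brightest probe set, a group of short oligonucleotides on an Affymetrix array, as the mean over the 6 arrays. The rule that reads a gene used its mean over all arrays and no difference between the groups. Primary myoblasts are the precursor cells that divide in culture and fuse into muscle fibres. In 3 samples they had been infected with lentivirus from Tet-pLKO-puro, a tetracycline-inducible vector, carrying a short hairpin RNA (shRNA) against LncMyoD, and 3 samples were labelled control. All 6 carry an age of 21 days. The labels do not say what the control cells received, whether an inducer was added, how many hairpins were used, or whether growth or differentiation medium was on the cells at harvest. They call the replicates biological but name no separate animals or dishes. The p-values therefore cover only how far these 3 samples per group scattered, which may be technical.

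The lysosome is the acidic compartment in which proteins, glycans and lipids are broken down by hydrolases, and it is acidified by a proton pump, the vacuolar ATPase (V-ATPase). Macroautophagy delivers cytoplasm and organelles to it. The ULK kinases start the process, a lipid kinase complex around Beclin 1 marks the forming membrane, and the ATG12 and ATG8 conjugation systems extend the membrane and load cargo receptors. The basic helix-loop-helix factors TFEB and TFE3 bind E-box sequences in promoters of lysosomal genes. In skeletal muscle, deficiency of acid alpha-glucosidase, the product of Gaa, causes Pompe disease, and mutation of Lamp2 causes Danon disease.

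The arrays of a group resembled each other closely (r = 0.996 to 0.997 across probe sets, against 0.987 to 0.990 between groups; probe sets are not independent replicates). LncMyoD itself was not matched to a probe set, so the groups rest on the labels. Markers of muscle cells split by stage. Pax7 (0.66) and Myf5 (0.62), transcription factors of muscle progenitors, and the adhesion gene Cdh15 (0.40) were higher in shRNA samples. Ckm, the creatine kinase of differentiated muscle, was 2.66-fold lower (-1.41), and Myh3 (-0.15), Myog (-0.13), Ncam1 (-0.11) and Acta1 (-0.088) were lower by less (limma adjusted p from 2.19e-09 for Ckm to 0.0386 for Acta1). Myh3, Myog, Ncam1 and Acta1 were bright in both groups, with mean log2 signals of 13.8 to 14.2 in controls and 13.7 to 14.1 in shRNA samples. Over all genes with a mean above 13 the median size of difference was 0.082. Myod1 (0.023) and Des (0.034) did not pass. The summed linear signal of these 10 markers was 100443 to 104956 in controls and 97168 to 101334 in shRNA samples. Of 13 macrophage and leukocyte markers, cells rich in lysosomes, 5 (Ptprc, Adgre1, Aif1, Itgam and C1qa) lay below the signal limit of 6.50 set for testing, 3 were higher (Cd68, Cd14 and Mrc1) and 0 lower, and the summed signal was 1092 to 1144 and 1111 to 1251. The control means of Cd68 (6.40) and Cd14 (6.12) lay below that limit, so these were tested only through their shRNA values (6.73 and 7.19), and Mrc1 stood at 6.52 in controls. The 8 fibroblast markers summed to 2373 to 2696 and 1872 to 2057, with 1 higher, 2 lower and 4 below the limit. Of 6 endothelial and 4 adipocyte markers 5 and 4 were below it. As a sign of RNA integrity, the actin control probe sets had a 3' over 5' log2 ratio of 0.51 ± 0.018 in controls and 0.55 ± 0.017 in shRNA samples, and the GAPDH ones 0.14 ± 0.045 and 0.23 ± 0.038 (SD, n = 3; exact permutation p = 0.1 for each, the smallest that 20 assignments allow). The part of these differences in what follows was not tested. In such bulk samples fewer cells of a type and less RNA per cell cannot be told apart.

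The comparison asks how this machinery differs between shRNA and control samples. Most lysosomal hydrolases that moved were higher in the shRNA samples, as were most moving V-ATPase subunits and both transcription factors among the members, Tfeb and Tfe3. Mitf, of the same family but outside the members, was lower (-0.44). The kinases that start autophagy, Ulk1 and Ulk2, fell 2.77-fold and 2.06-fold on their brightest probe sets, the largest decreases among the members, followed by the sulfatase gene Galns at 1.90-fold. The largest increases on the brightest probe sets were those of Hexa (1.70-fold), Uvrag (1.62-fold) and Tfe3 (1.52-fold). With the probe sets of a gene averaged the order changed: Ulk2 stood at -0.56, behind Ulk1 at -1.07 and Galns at -0.93, and Ctsl at 0.86 passed Hexa at 0.77. Of the 51 members 26 rose, 6 fell and 19 did not pass the threshold, an adjusted p of 0.05 in limma's test. Over all 12408 genes 58.5% passed, 35.7% higher and 22.8% lower, so a call by itself was common on these arrays. The shares of the members were 51.0% higher and 11.8% lower. Their median difference was 0.13 on the log2 scale, shRNA minus control, against 0.045 over all genes tested. In 37 of the 51 members every shRNA array lay on the same side of every control, against 64.7% of all genes. With the arrays centred, each on the median of its tested probe sets, 22 members were higher and 13 lower, with a median of 0.065, and over all genes 29.2% were higher and 29.6% lower. The balance of increases and decreases thus moved with the scale, while 25 of the 32 calls held in every one of the 15 alternative settings in which the member had a value.

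**Figure D1:**
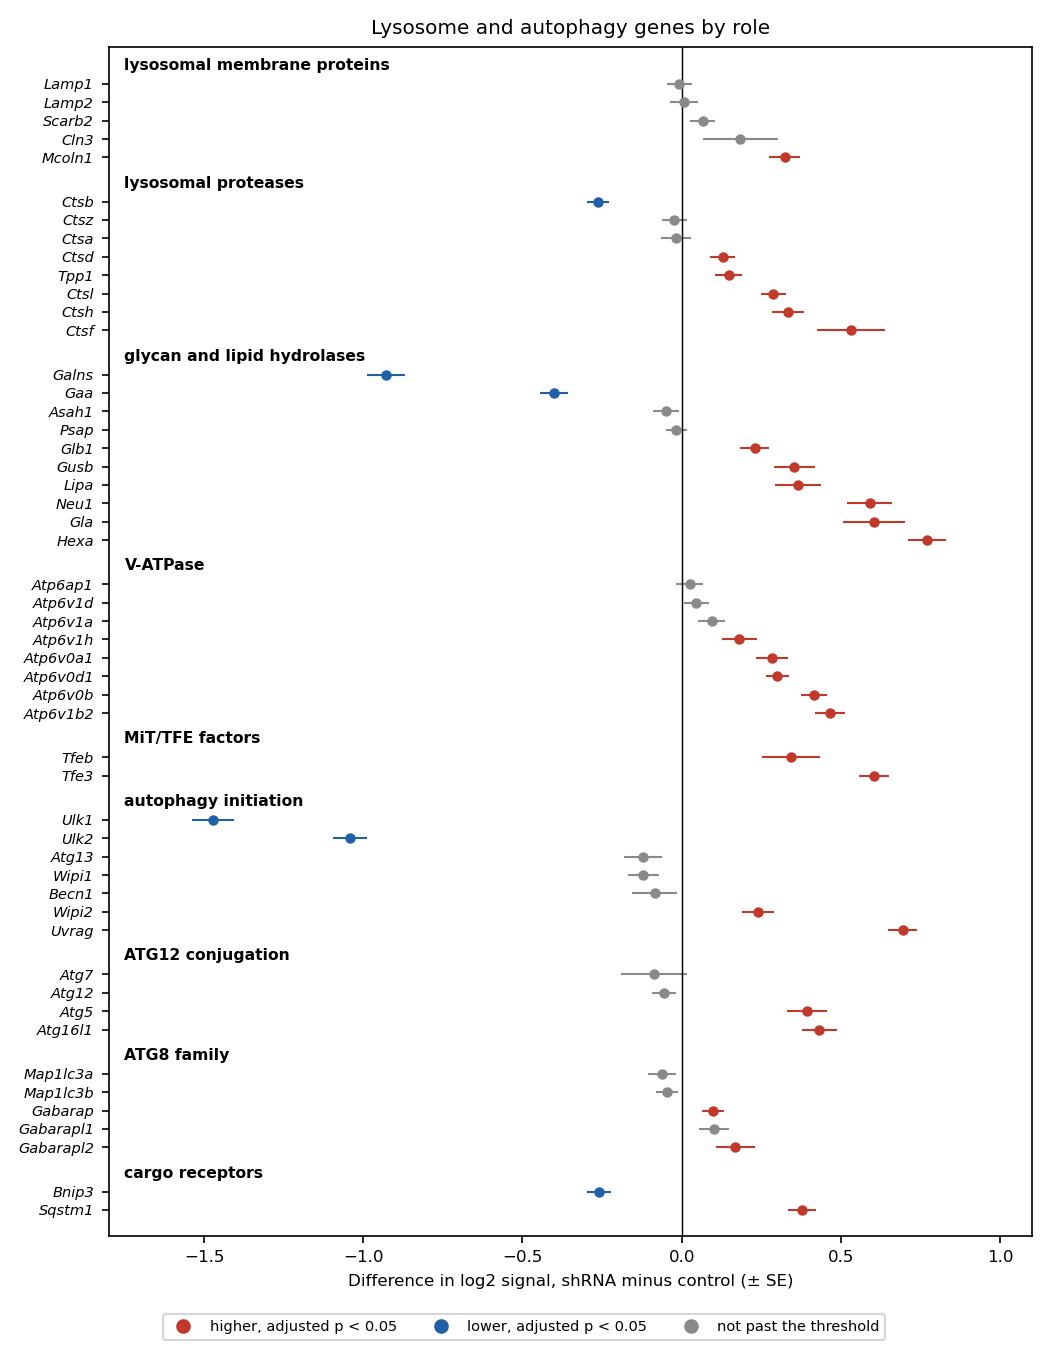
Difference in log2 signal between shRNA and control samples for the 51 tested members, grouped by role, with limma's SE as bars; red points were higher, blue lower and grey not past an adjusted p of 0.05. Red points are 5 of 8 proteases, 6 of 10 glycan and lipid hydrolases and 5 of 8 V-ATPase subunits, against 35.7% of all genes. Blue points in these groups number 1, 2 and 0, against 22.8% of all genes. The points farthest to the left are Ulk1 at -1.47 and Ulk2 at -1.04.

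Among lysosomal membrane proteins 1 of 5 tested members rose (20.0%, against 35.7% of all genes) and 0 fell. Mcoln1 encodes the calcium channel TRPML1, which releases calcium from the lysosome. Its log2 signal was 10.48, 10.52 and 10.50 in the controls and 10.87, 10.84 and 10.76 in the shRNA samples. Each shRNA array lay above each control, with a difference of 0.32 (SE 0.049, limma adjusted p = 0.000116), and the other 2 probe sets of Mcoln1 also rose, by 0.30 and 0.35. Lamp1 and Lamp2, the abundant glycoproteins of the lysosomal membrane, differed by -0.007 and 0.0080 (limma adjusted p = 0.898 and 0.895). Lamp1 read 13.75, 13.66 and 13.72 in controls and 13.64, 13.71 and 13.76 in shRNA samples, ranges that overlapped, and none of the 3 further probe sets of Lamp2 passed. Scarb2, the receptor that carries glucocerebrosidase to the lysosome, differed by 0.066 on its brightest probe set (12.73 in controls, limma adjusted p = 0.188). Its dimmer probe set rose by 0.56, from 10.40 to 10.96 (limma adjusted p = 2.27e-06), so the probe sets of Scarb2 disagreed. Cln3, mutated in juvenile Batten disease, was close to the limit of tested signals, at 6.57 ± 0.11 and 6.76 ± 0.058, and did not pass (limma adjusted p = 0.210).

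The lysosomal proteases rose in 5 of 8 cases (62.5%) and fell in 1 (12.5%), against 35.7% and 22.8% of all genes. Their median difference was 0.14. The gene that fell was Ctsb, encoding cathepsin B, a cysteine protease. It read 13.33, 13.28 and 13.25 in controls and 13.01, 13.01 and 13.04 in shRNA samples. All shRNA arrays lay below all controls, and the difference was -0.26 (SE 0.035, limma adjusted p = 3.14e-05). Of its other tested probe sets a pair fell by 0.46 each and the remaining one stood at -0.047 (limma adjusted p = 0.567). The cysteine cathepsins L, H and F moved the other way. Ctsl read 12.84, 12.73 and 12.71 in controls against 13.04, 13.06 and 13.05, a rise of 0.29 (SE 0.040, limma adjusted p = 4.77e-05). A dimmer probe set of Ctsl rose far more, by 1.43, from 9.26 to 10.69 (2.69-fold, limma adjusted p = 1.70e-09), so the size of its increase depends on the probe set. Ctsh went from 10.93, 10.90 and 10.78 to 11.20, 11.21 and 11.20, by 0.33 (SE 0.049, limma adjusted p = 8.93e-05). Ctsf, the dimmest of the group, read 7.93, 7.89 and 7.57 in controls and 8.35, 8.28 and 8.35 in shRNA samples. These values did not overlap, with a difference of 0.53 (SE 0.11, limma adjusted p = 0.00100), but a second probe set near the limit stood at -0.090 (limma adjusted p = 0.612), and the average of both did not pass (0.22, limma adjusted p = 0.0551).

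Smaller increases were measured for Tpp1, tripeptidyl peptidase 1 (0.15, limma adjusted p = 0.0112), and Ctsd, the aspartic protease cathepsin D (0.13, limma adjusted p = 0.0147). Both calls ended with the arrays centred (limma adjusted p = 0.0831 and 0.160) and without a variance trend. Leaving out control 3 also ended that of Tpp1 (0.13, limma adjusted p = 0.0503), and that of Ctsd without control 2 (0.090, 0.0746) or shRNA array 3 (0.12, 0.0517). The second probe set of Tpp1 rose by 0.34. Ctsa, protective protein, and Ctsz, cathepsin Z, differed by -0.017 and -0.023 and did not pass, although a dim probe set of Ctsa rose by 0.42 (limma adjusted p = 0.00659).

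The enzymes that cut glycans and lipids were the lysosome group with the widest spread, from -0.93 to 0.77, with a median of 0.29. Of these 10 members 6 rose and 2 fell, against 35.7% and 22.8% of all genes. The share that fell was thus close to that of all genes. Hexa encodes the alpha subunit of beta-hexosaminidase, whose loss causes Tay-Sachs disease. It read 9.76, 9.78 and 9.68 in controls and 10.49, 10.60 and 10.44 in shRNA samples. The groups were far apart, by 0.77 (SE 0.060, limma adjusted p = 3.02e-07). Galns removes sulfate from keratan and chondroitin sulfate. It was 10.19, 10.29 and 10.29 in controls and 9.35, 9.37 and 9.27 in shRNA samples. Its decrease of 0.93 (difference -0.93, SE 0.061, limma adjusted p = 6.33e-08) ran against most of its group. Gaa, which breaks down lysosomal glycogen, also fell, from 11.14, 11.11 and 11.15 to 10.76, 10.72 and 10.72 (-0.40, SE 0.044, limma adjusted p = 6.96e-06). Its second probe set fell by 0.34. The sialidase Neu1 read 9.19, 9.15 and 8.99 in controls and 9.71, 9.71 and 9.68 in shRNA samples. This 1.51-fold increase (0.59, SE 0.070, limma adjusted p = 1.33e-05) was met by 0.77 on a second probe set and by 0.12, not past the threshold, on the other.

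The other increases in this group were those of alpha-galactosidase A, Gla (0.60), the acid lipase Lipa (0.36), beta-glucuronidase, Gusb (0.35), and beta-galactosidase, Glb1 (0.23). All 3 probe sets of Lipa rose, by 0.35 to 0.46. Gla had 8.54, 8.29 and 8.18 in controls and 8.98, 8.98 and 8.86 in shRNA samples, so its controls were the more scattered. Acid ceramidase, Asah1, and prosaposin, Psap, which supplies activator proteins for sphingolipid hydrolases, both stood above 13 and differed by -0.050 and -0.017, not past the threshold. With the arrays centred both were called lower (-0.11 and -0.081, limma adjusted p = 0.0318 and 0.0463).

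**Figure D2:**
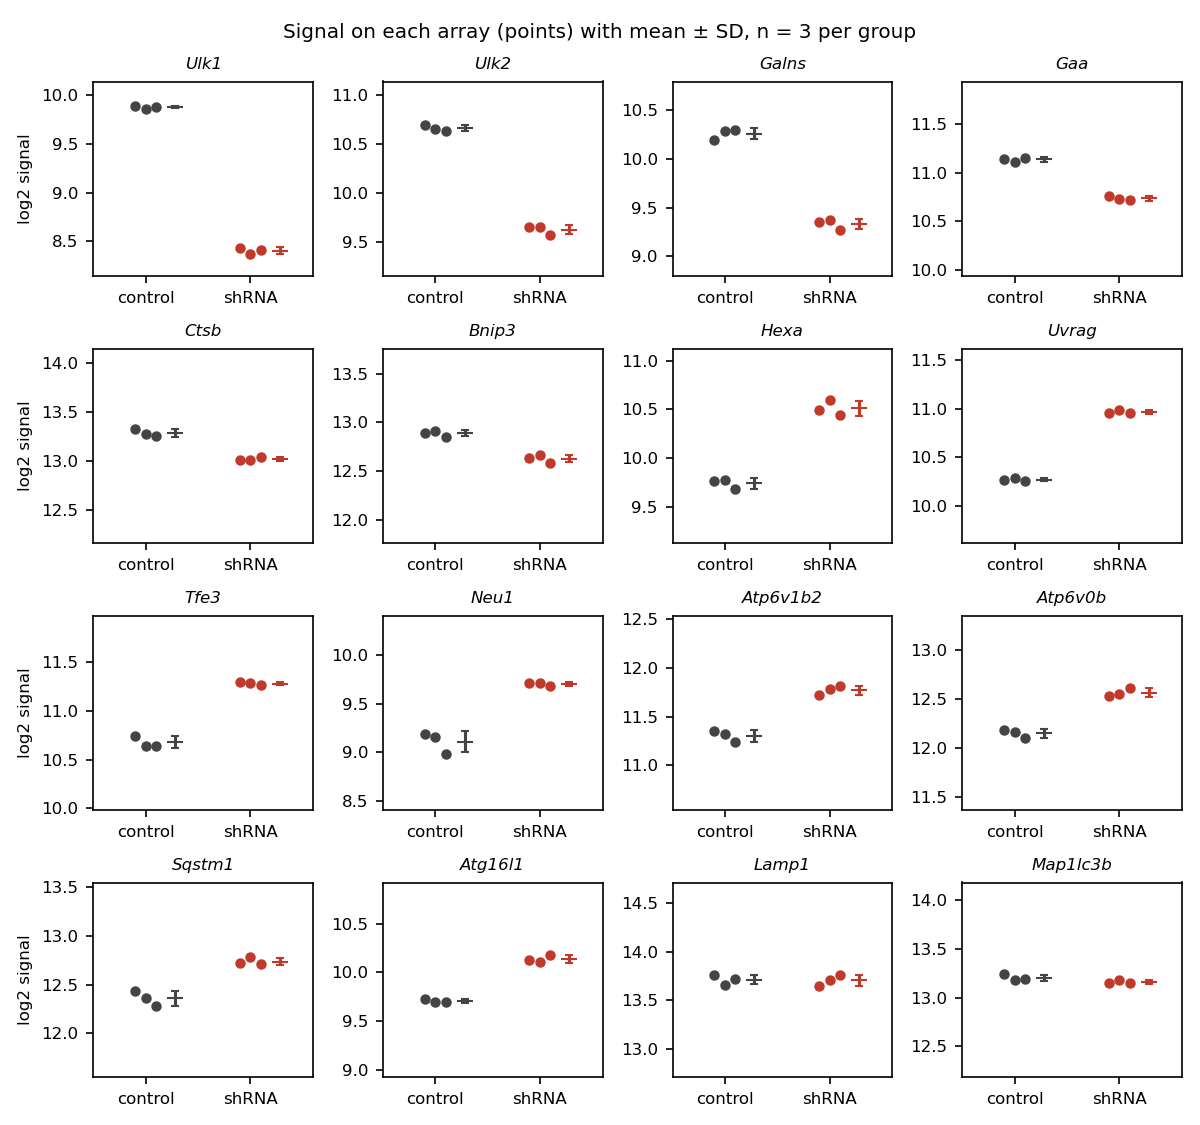
Log2 signal of 16 members on each array, controls in dark grey and shRNA samples in red, with the mean ± SD of 3 arrays beside the points; each panel spans 2 log2 units. The arrays of the groups are separate in the first 14 panels. Those of Map1lc3b are barely so, with the lowest control at 13.186 and the highest shRNA array at 13.182. Lamp1, whose arrays overlap, and Map1lc3b show the small differences of the brightest members.

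V-ATPase subunits rose in 5 of 8 tested cases (62.5%, against 35.7% of all genes), 0 fell and the other 3 did not pass. Atp6v1b2 encodes the B2 subunit of the catalytic V1 sector. It read 11.36, 11.32 and 11.23 in controls and 11.72, 11.78 and 11.81 in shRNA samples. The difference was 0.47 (SE 0.046, limma adjusted p = 2.73e-06), and 2 of its other 3 probe sets rose by 0.41 and 0.38. Atp6v0b, a proteolipid of the membrane V0 sector, went from 12.19, 12.16 and 12.10 to 12.53, 12.55 and 12.62 (0.42, SE 0.041, limma adjusted p = 2.24e-06), with both of its other probe sets higher. Atp6v0d1, which links the V0 sector to the rotor, read 12.31, 12.31 and 12.30 and then 12.57, 12.61 and 12.64. Its controls were nearly identical, and the rise was 0.30 (SE 0.036, limma adjusted p = 1.52e-05). Atp6v0a1, a membrane subunit of the V0 sector, rose from 10.74 ± 0.067 to 11.03 ± 0.044 (SD, n = 3) with no overlap (0.28, SE 0.051, limma adjusted p = 0.000401), while its 3 other probe sets did not pass, and the average of the 4 did not either (0.069, limma adjusted p = 0.366).

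Atp6v1h, a regulatory subunit, rose by 0.18 (limma adjusted p = 0.0130). It no longer passed when control 3 was left out (0.13, limma adjusted p = 0.0623), when shRNA array 2 was left out (0.16, 0.0575), or with its probe sets averaged (0.040, 0.671), and with no variance trend (0.0593). The members that did not pass were the catalytic subunit Atp6v1a (0.094, limma adjusted p = 0.0734), Atp6v1d (0.046) and the accessory protein Atp6ap1 (0.025). The arrays of Atp6v1a did not overlap, and it passed without control 1 (0.13, limma adjusted p = 0.0124).

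Both members that belong to the MiT/TFE family of factors, which drive lysosomal genes, rose. Tfe3 read 10.75, 10.64 and 10.64 in controls and 11.29, 11.29 and 11.26 in shRNA samples. The increase was 0.60 (SE 0.047, limma adjusted p = 3.16e-07). Tfeb was dimmer, at 7.59, 7.64 and 7.71 in controls and 7.94, 8.02 and 8.01 in shRNA samples. It rose by 0.34 (SE 0.092, limma adjusted p = 0.00672), and each factor had 1 probe set. Mitf, of the same family but not among the members, fell by 0.44, from 11.68 ± 0.012 to 11.24 ± 0.049 (limma adjusted p = 1.93e-06). Transcript levels do not show where these proteins are in the cell, which is how TFEB and TFE3 are mainly controlled.

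The sequences upstream of the members were read because TFEB and TFE3 bind CACGTG, and the extended form TCACGTGA is the core of the CLEAR element known from lysosomal promoters. RefSeq promoter windows of build GRCm38.p6, 250 bases before to 50 after a transcript's start, were matched to 43 of the 54 members. Both motifs are palindromes, so each match reads the same on both strands, and every TCACGTGA contains a CACGTG. In the 250 bases before the start CACGTG was found in 15 of 43 members (34.9%), against 6.86% of 27025 genes with such windows and 6.02% of 32851 windows. TCACGTGA was found in 6 members (14.0%), Mcoln1, Ctsd, Gla, Atp6v1a, Cln3 and Ctsa, against 0.907% of genes and 0.785% of windows. All 6 belong to the 27 lysosome members with a window, and 0 of 14 autophagy members held it, which says only that these letters are not in those windows. With the 50 bases after the start included, Atp6v0d1 was a seventh, against 1.12% of genes and 0.974% of windows. These shares over all genes include genes that were not tested on these arrays. Among tested genes with a window, 984 held CACGTG in the 250 bases before the start and 9039 did not. For TCACGTGA these numbers were 177 and 9846, so the excess among the members is smaller against tested genes. Ctsa, whose stretch is not shown, held TCACGTGA both at -13 and at 5 from the start, and its difference of -0.017 did not pass. The stretches below come from the other 6 of these 7 genes, with TCACGTGA in capitals (2 copies in Gla). The last comes from Lamp1, which held 4 copies of CACGTG, in capitals there, and whose signal was level between the groups. All stretches shown are parts of the windows. They run 5′ to 3′ on the gene's strand.
Mcoln1, chr8:3500429-3500498, plus strand: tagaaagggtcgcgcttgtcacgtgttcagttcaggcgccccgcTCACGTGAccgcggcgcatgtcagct
Ctsd, chr7:142387888-142387957, minus strand: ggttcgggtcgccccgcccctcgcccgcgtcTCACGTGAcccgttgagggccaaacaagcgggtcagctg
Gla, chrX:134601176-134601251, minus strand: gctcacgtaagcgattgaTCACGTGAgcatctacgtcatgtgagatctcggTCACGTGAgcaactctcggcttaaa
Atp6v1a, chr16:44139355-44139424, minus strand: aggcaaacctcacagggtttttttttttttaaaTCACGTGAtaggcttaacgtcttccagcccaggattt
Cln3, chr7:126583322-126583391, minus strand: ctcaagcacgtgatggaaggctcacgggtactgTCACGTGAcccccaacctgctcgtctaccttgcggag
Atp6v0d1, chr8:105566050-105566079, minus strand: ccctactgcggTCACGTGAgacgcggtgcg
Lamp1, chr8:13159081-13159160, plus strand: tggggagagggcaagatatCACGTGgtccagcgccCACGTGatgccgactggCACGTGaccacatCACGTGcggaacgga

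Of the 7 members with TCACGTGA in the whole window 4 rose (Gla, Mcoln1, Atp6v0d1 and Ctsd) and 0 fell, and their median difference was 0.18. Of the 34 tested members with a window that lacked it 18 rose and 4 fell, with a median of 0.12. The shares that rose were thus 57.1% with these letters and 52.9% without them. In the 250 bases before the start alone the order was the other way. There 3 of 6 members with TCACGTGA rose, against 19 of 35 without it (54.3%). For CACGTG in those bases 8 of 15 members rose (53.3%), against 14 of 26 without it (53.8%). Among the members, the match thus did not go with a clearly larger share of increases. Hexa, Neu1 and Tfe3, among the members that rose most, had no CACGTG in their windows. Over all tested genes with a window, 50.2% of 217 genes with TCACGTGA in the whole window were higher and 16.6% lower (median 0.12). Of the 9806 genes without it 36.2% were higher and 22.6% lower (median 0.048). In the 250 bases alone 47.5% of 177 genes with it were higher, against 36.3% of 9846 without it. A match describes the sequence and is not evidence that a factor was bound.

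The autophagy initiation members had the widest range of the autophagy groups, from -1.47 to 0.69. Among these 7 members 2 rose (28.6%), 2 fell (28.6%) and 3 did not pass the threshold. Their median size of difference was 0.24, like that of the ATG12 conjugation members (0.24) and below that of the cargo receptors (0.32). Over the 18 autophagy members, leaving out Tfeb and Tfe3, 38.9% were higher and 16.7% lower, close to the 35.7% and 22.8% of all genes. Ulk1, the kinase that senses energy and nutrient state for autophagy, read 9.89, 9.86 and 9.88 in controls and 8.43, 8.37 and 8.41 in shRNA samples. The groups were 1.47 apart with almost no spread within them (difference -1.47, SE 0.066, limma adjusted p = 3.20e-09). The dimmer probe set of Ulk1 also fell, by 0.66 (limma adjusted p = 0.0128). Its relative Ulk2 read 10.70, 10.65 and 10.64 in controls and 9.65, 9.65 and 9.57 in shRNA samples. The difference was -1.04 (SE 0.054, limma adjusted p = 9.37e-09). A second probe set of Ulk2 fell by 1.33, whereas the remaining pair stood at -0.026 and 0.17 and did not pass, so not every probe set of Ulk2 showed the decrease. Among all genes tested 5.34% fell and 8.1% rose at least 1.5-fold with a call; Ulk1, Ulk2 and Galns were the 3 members that did so downward, and Hexa, Uvrag, Tfe3, Gla and Neu1 the 5 upward.

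Uvrag, a Beclin 1 partner that acts in membrane maturation, rose from 10.26, 10.29 and 10.26 to 10.95, 10.99 and 10.95. The arrays of each group lay within a narrow band, 0.69 apart (SE 0.047, limma adjusted p = 7.75e-08). Wipi2, which binds phosphatidylinositol 3-phosphate and recruits ATG16L1, read 11.07, 11.03 and 10.92 in controls and 11.22, 11.27 and 11.26 in shRNA samples, a rise of 0.24 (SE 0.049, limma adjusted p = 0.00118). Of its other probe sets 1 rose by 0.41 and 1 did not pass. The ULK partner Atg13 (-0.12), Becn1 (-0.084) and Wipi1 (-0.12) did not pass. Wipi1 lay just outside the threshold (limma adjusted p = 0.0507) and passed without control 1 (-0.14, 0.0410) or shRNA array 3 (-0.15, 0.0338) and with the arrays centred (-0.19, 0.00845). Atg13 passed with the arrays centred or quantile normalized (limma adjusted p = 0.0213 and 0.0187). Becn1 read 12.76, 12.77 and 13.09 in the shRNA samples, and without shRNA array 3 it was called lower (-0.19, limma adjusted p = 0.00271), while the brighter of its probe sets without a suffix for cross-hybridization was higher by 0.17 (limma adjusted p = 0.0219). Its direction is thus not settled by these arrays.

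Of the ATG12 conjugation system, 2 of 4 members rose and 0 fell, against 35.7% and 22.8% of all genes. Atg16l1, which places the conjugate on the membrane, read 9.73, 9.69 and 9.70 in controls and 10.13, 10.11 and 10.18 in shRNA samples. The difference was 0.43 (SE 0.055, limma adjusted p = 2.54e-05), and a second probe set rose by 0.34. Atg5, the acceptor of ATG12, read 10.70, 10.50 and 10.52 and then 10.91, 11.06 and 10.93. All 3 probe sets of Atg5 rose, by 0.39 (SE 0.063, limma adjusted p = 0.000161) on the brightest and by 0.24 and 0.37 on the others. Atg7, the activating enzyme, and Atg12 itself differed by -0.088 and -0.056 and did not pass, but a dimmer probe set of each fell (-0.23, limma adjusted p = 0.0165, and -0.15, limma adjusted p = 0.0104). Atg12 was called lower with the arrays centred (-0.12, limma adjusted p = 0.0107) and with its probe sets averaged (-0.11, 0.0411).

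The ATG8 family consists of ubiquitin-like proteins that are attached to the autophagosome membrane. On the brightest probe sets the family had the smallest median size of difference of the autophagy groups (0.099). Of its 5 tested members 2 rose, by less than 0.2, and 0 fell, against 35.7% and 22.8% of all genes. The share that rose was thus close to that of all genes. Gabarap read 13.16, 13.09 and 13.11 in controls and 13.18, 13.24 and 13.24 in shRNA samples. Gabarapl2 read 11.62, 11.63 and 11.53 and then 11.75, 11.90 and 11.63, so its lowest shRNA array lay barely above the highest control. The differences were 0.099 (SE 0.035, limma adjusted p = 0.0311) and 0.17 (SE 0.061, limma adjusted p = 0.0333). The call of Gabarap ended without control 2 (0.083, limma adjusted p = 0.110) or 3 (0.095, 0.0837), without shRNA array 2 (0.090, 0.116) or 3 (0.089, 0.0948), with the replicate number as a block (adjusted p = 0.0896) and with no variance trend (0.119). That of Gabarapl2 ended without control 3 (0.13, limma adjusted p = 0.131), shRNA array 1 (0.17, 0.0557) or shRNA array 2 (0.098, 0.178) and with quantile normalization (0.14, 0.0633) or no variance trend (0.110), and neither held with the arrays centred. A second probe set of Gabarapl2 rose by 0.56 (limma adjusted p = 4.13e-06). Gabarapl1 had 11.59, 11.52 and 11.42 in controls and 11.60, 11.63 and 11.60 in shRNA samples (0.10, limma adjusted p = 0.0887), and passed without control 1 (0.14, 0.0206).

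The LC3 genes did not pass on their brightest probe sets. Map1lc3a read 13.20, 13.13 and 13.14 in controls and 13.02, 13.10 and 13.18 in shRNA samples, and these overlapped (-0.063, limma adjusted p = 0.245). Map1lc3b read 13.24, 13.19 and 13.19 and then 13.15, 13.18 and 13.15, which narrowly did not overlap (-0.045, limma adjusted p = 0.280). A pair of dimmer probe sets of Map1lc3b rose, by 0.16 and 0.20 (limma adjusted p = 0.00273 and 0.000992). With the arrays centred both genes were called lower (-0.13 and -0.11, limma adjusted p = 0.0228 and 0.00919), so the LC3 genes gave opposite readings by probe set and by scale.

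The cargo receptors moved in opposite directions. Sqstm1, p62, which ties ubiquitinated cargo to ATG8 proteins, read 12.43, 12.36 and 12.29 in controls and 12.72, 12.78 and 12.71 in shRNA samples. It rose by 0.38 (SE 0.043, limma adjusted p = 9.03e-06), and its other probe set by 0.30. Bnip3, a mitochondrial receptor for mitophagy, read 12.89, 12.91 and 12.85 and then 12.63, 12.66 and 12.59. It fell by 0.26 (difference -0.26, SE 0.037, limma adjusted p = 6.60e-05) on its only probe set.

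The size of the differences ran with the brightness of the probe set, which is a property of the probe set and not a measure of transcript amount between genes. Of 11 members with a mean signal above 13, 3 passed (Ctsb, Ctsd and Gabarap), with a median size of difference of 0.046. Of 19 between 11 and 13, 12 passed (median size 0.18), and of 21 below 11, 17 passed (0.40). Over all genes 45.1%, 65.9% and 56.4% passed in these ranges, so the share called did not rise steadily as the signal fell, and the median sizes were 0.082, 0.18 and 0.25. Lamp1, Lamp2, Psap, Asah1, Map1lc3a and Map1lc3b are all among the 11 brightest members. The part of brightness in their small differences was not tested.

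**Figure D3:**
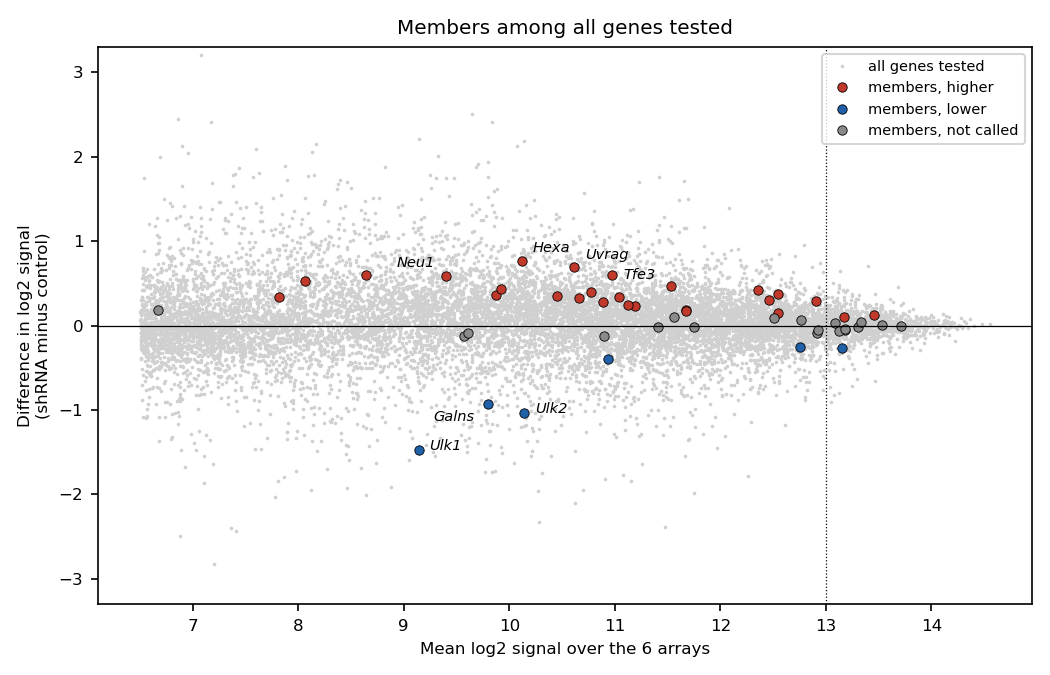
Mean log2 signal over the 6 arrays against the difference in log2 signal for the 12408 genes tested (light grey), with the 51 members drawn over them; the dotted line marks a mean of 13. Members to the right of the line lie between -0.26 (Ctsb) and 0.13 (Ctsd), and the members lowest on the plot are Ulk1, Ulk2 and Galns.

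A second reading of the same RNA was available for the 36 members with 2 or more tested probe sets. Of 32 called members 21 had another tested probe set. In 12 of these every other probe set passed in the same direction, in 9 at least 1 did not pass, and in 0 did another pass in the opposite direction. Of 15 members that were not called and had another probe set, 4 had one that was higher (Scarb2, Ctsa, Becn1 and Map1lc3b), 2 had one that was lower (Atg7 and Atg12), and in 9 none passed. Of the 65 other probe sets 23 were higher, 7 lower and 35 not past the threshold, while 30.4% and 23.5% of all tested probe sets were higher and lower.

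**Figure D4:**
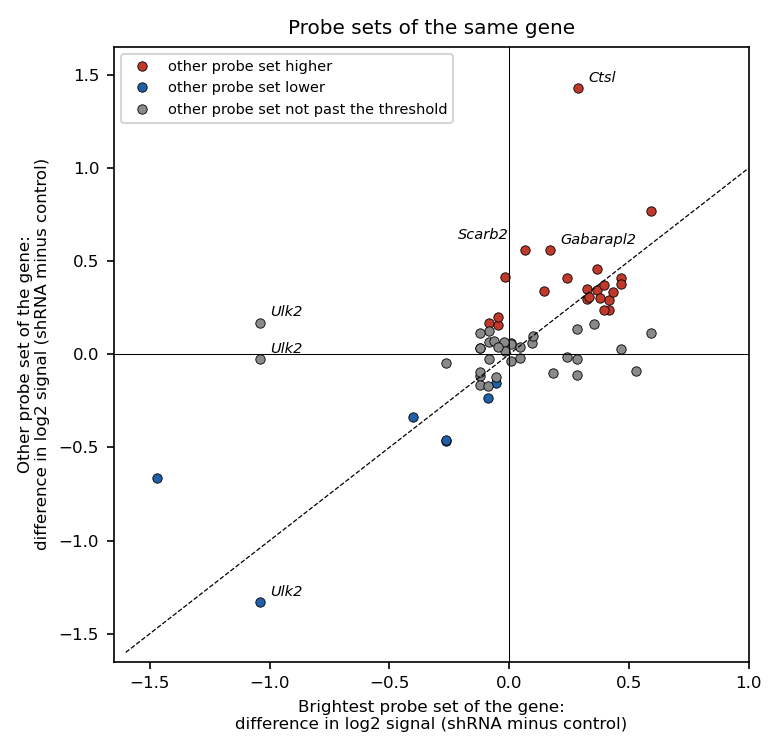
Difference in log2 signal on the brightest probe set of a member against the difference on each of its other tested probe sets (65 points), coloured by the call of the other probe set; the dashed line marks equal values. No coloured point lies in the opposite quadrant to a called brightest probe set, the farthest above the dashed line is the Ulk2 probe set at 0.17, against -1.04 on the brightest, and the Ctsl probe set at 1.43 is the highest on the plot.

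Genes of the same pathways outside the members were counted from 6 lists chosen by function, with earlier results of these data known. Their counts are therefore not an independent check on those of the members. Over all lists 138 genes were tested, with 65 higher (47.1%), 17 lower (12.3%) and a median difference of 0.098. The shares over all 12408 genes were 35.7% and 22.8%, with a median of 0.045. Apart from Prkaa2, the genes named from these lists passed with limma adjusted p-values from 6.60e-08 (Prkaa1) to 0.0155 (Slc17a5). Other lysosomal hydrolases rose in 14 of 24 cases (58.3%) and fell in 1 (median 0.31). Pla2g15, a lysosomal phospholipase, rose by 1.26 and Ctso, cathepsin O, by 1.16, and Acp2, an acid phosphatase, fell by 0.22. Other membrane and sorting proteins rose in 10 of 22 cases (45.5%) and fell in 2 (9.1%). The proton-coupled amino acid transporter Slc36a1 rose by 1.13 and the chloride-proton exchanger Clcn7 by 0.65, whereas Gnptab, which starts the mannose 6-phosphate tag of hydrolases, fell by 1.11 and the sialic acid exporter Slc17a5 by 0.23. Of 9 other V-ATPase subunits 3 rose, with Tcirg1 at 0.41 and Atp6ap2 at 0.20, and 0 fell. That share of 33.3% higher was close to the 35.7% over all genes.

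Other genes of autophagosome formation and fusion rose in 19 of 36 cases (52.8%) and fell in 6 (16.7%). Snap29, a SNARE of autophagosome fusion, rose by 0.63 and Pik3r4, a subunit of the class III phosphatidylinositol 3-kinase, by 0.62. Plekhm1 (-0.53) and the inhibitor Rubcn (-0.35) fell. Other selective autophagy genes were close to balance, with 4 of 16 higher, including Stbd1 (0.36) and Tex264 (0.19), and 3 lower, including Bag3 (-0.43) and the mitophagy receptor Fundc1 (-0.32). These shares, 25.0% and 18.8%, were both below those over all genes, 35.7% and 22.8%. Of 31 genes that control mTORC1 and TFEB 15 rose (48.4%), with Depdc5 (0.58) and Fnip2 (0.53) first, and 5 fell (16.1%). The largest decrease in that list was of Prkaa1, which encodes a catalytic subunit of AMP-activated protein kinase, an activator of ULK1. It fell by 0.77, from 11.37 ± 0.058 to 10.59 ± 0.064 (limma adjusted p = 6.60e-08). Prkaa2, in the same list, encodes the other catalytic subunit. It stood at 12.40 ± 0.038 and 12.47 ± 0.080 and did not pass (0.070, limma adjusted p = 0.207).

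**Figure D5:**
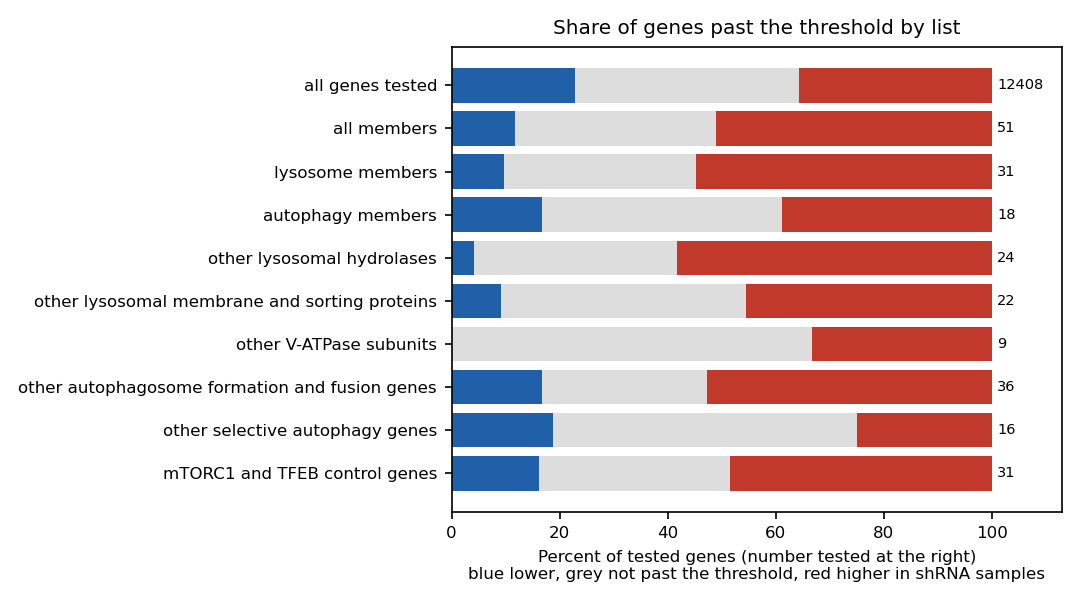
Percent of tested genes that were lower (blue), not past the threshold (grey) or higher (red) in shRNA samples, for all 12408 genes, the 51 members, their lysosome and autophagy parts and the 6 lists of other pathway genes, with the number tested at the right. The 31 lysosome members had 17 higher (54.8%) and 3 lower (9.7%). The 18 autophagy members, leaving out Tfeb and Tfe3, had 7 higher (38.9%) and 3 lower (16.7%). Over all genes the shares were 35.7% and 22.8%.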

How the data were processed

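Transcript levels were measured on Affymetrix arrays in 3 control and 3 shRNA samples. The values deposited by the authors are log2 signals, 1 for each probe set and array. That they are log2 was judged by their range (4.48 to 14.6). The median over all probe sets was 7.23 on control array 1, and those of the other arrays are not given here. Per the submitters' processing notes PLIER and MAS5 were used, with roles, versions, background correction and offset not given in the sources used here. An array has no read depth, and 3 arrays per group limit the precision.

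The 64 control probe sets and the dimmest 40% of the rest, by the mean of the 6 arrays, were left out, which kept 27022 probe sets. Differences were tested with limma 3.58.1 in R 4.3.3 (lmFit, eBayes with a variance trend; shRNA minus control), with Benjamini-Hochberg adjustment over all probe sets tested. A gene was read by its brightest probe set with that symbol alone in GEO's platform annotation. The calculations were tested on simulated data. Alternatives were centring, quantile normalization, other filters, no trend, other choices of probe set, a replicate block and leaving out each array. The members and lists were chosen with earlier results of these data known. Within a role, values per array are given for up to 4 called members with the smallest p, for Tfeb, Tfe3 and the ATG8 family; Lamp1, Gla and Becn1, and the named cell type markers, were added after their values were seen. Outside the members, up to 2 genes per list and direction with the largest called difference are named, and Prkaa2 was added beside Prkaa1. Whether equal replicate numbers pair the samples was checked by the correlation of deviations from group means.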

Additional observations from a re-analysis of the deposited data

How the results depend on the processing

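Over the alternatives that left out 1 array each, the number of members higher ranged from 22 to 28, the number lower from 6 to 8 and the median difference from 0.098 to 0.16. With the arrays centred 13 members were lower, and the median was 0.065. In the other alternatives 21 to 26 members were higher and 6 to 8 lower. Between arrays of equal replicate number the deviations correlated at -0.13, -0.062 and 0.031, and between arrays of unequal number at -0.11 to 0.14. No pairing was seen in this way, but a weak one could be missed. With the replicate block 25 members were higher and 6 lower, with only the call of Gabarap lost. No called member changed sign. Members that were not called did so as follows. With the arrays centred Lamp2 stood at -0.056, Atp6v1d at -0.018 and Atp6ap1 at -0.039. With quantile normalization Lamp1 stood at 0.018. With _x_at probe sets used only where a gene had no other, Map1lc3a stood at 0.071. With _x_at and _s_at probe sets left out Lamp2 stood at -0.038, Ctsz at 0.037, Becn1 at 0.17 and Map1lc3a at 0.071. With probe sets averaged Ctsa stood at 0.20, Ctsz at 0.027, Psap at 0.0017, Becn1 at 0.049, Map1lc3a at 0.0040 and Map1lc3b at 0.087. With 1 array left out Lamp1 ranged from -0.035 to 0.023 (above 0 without control 1 or shRNA array 1), Lamp2 from -0.024 to 0.052 (below 0 without control 2, shRNA array 2 or shRNA array 3) and Ctsa from -0.054 to 0.022 (above 0 without control 1 or shRNA array 2). Atg7 ranged from -0.18 to 0.028 (above 0 without control 1), and Atp6ap1 stood at -0.019 without shRNA array 3. The cause of these changes was not tested beyond what each setting does by construction. Detection calls were not used here, so signals near the limit, such as Cln3, could not be set against background.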
